A study of Mus musculus with 2 samples.

Results

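The genes described here encode the subunits of the mitochondrial respiratory chain and of ATP synthase, together with a few assembly factors of the same gene symbols. They were chosen by symbol among the protein-coding genes of the mm10 RefSeq table (Nduf, Sdha to Sdhd, Uqcr, Atp5, and Cox followed by 4 to 8). The rule took 100 of 21887 protein-coding genes. Each gene was examined for peaks of an Arid1b chromatin immunoprecipitation with sequencing (ChIP-seq) lying within 1 kb of either annotated end of the gene, called boundary peaks below.

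The study compared 1 library of Arid1b ChIP with 1 library of input chromatin, which had no antibody. Both came from wild-type C57BL/6 mice, per the sample labels, whereas the title and design text of the series speak of Arid1a and of its conditional knockout in mice. The cells were primary dental mesenchyme cells from the apical end of the first lower molars, taken between postnatal days 3.5 and 7.5 and cultured with 10% serum. No allele or agent distinguished the libraries, and with 1 library per group there was no replicate check, so every value describes these libraries only. No RNA was measured in these files, so the labelled cell type was not checked against marker expression, and the levels of the respiratory transcripts were not analysed here.

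Arid1b is one of the alternative ARID subunits of the BAF class of SWI/SNF complexes, which move nucleosomes at promoters and enhancers. The respiratory chain passes electrons from NADH and succinate to oxygen through complexes I to IV while pumping protons across the inner mitochondrial membrane, and complex V, the ATP synthase, uses the proton gradient to make ATP. Most subunits are encoded in the nucleus, and NRF1, GABPA and YY1 are known regulators of many of these nuclear genes. Complex II is encoded in the nucleus alone, whereas the other complexes also contain subunits made from mitochondrial DNA, which were not part of the gene set.

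Arid1b boundary peaks were listed at 27 of the 100 genes (27.0%, exact binomial 95% interval 18.6 to 36.8), against 22.2% of all protein-coding genes. The share was thus near that of genes at large. It was not evenly spread over the complexes. Complex V had boundary peaks at 10 of 17 genes, complex III at 3 of 8, complex I at 9 of 41, complex IV at 1 of 18 and complex II at 0 of 4, and the assembly factors at 4 of 12. For complex V the share was 58.8% (32.9 to 81.6), and the background of 22.2% lay below its interval. In complex IV it was 5.56% (0.141 to 27.3), and the intervals of complexes IV and V did not overlap. The 18 genes of complex IV include Cox7a2l, which is not counted as a subunit, and alternative forms of several subunits. Whether these forms are expressed in these cells was not measured, and the share without them was not computed. Complex I, at 22.0% (10.6 to 37.6), was close to the background, while the intervals of complex III, at 37.5% (8.52 to 75.5), and of the assembly factors, at 33.3% (9.92 to 65.1), were wide and contained it. The 4 genes of complex II allow a share of up to 60.2%. These intervals treat genes as independent draws, and the difference between complexes was not tested.

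**Figure D1:**
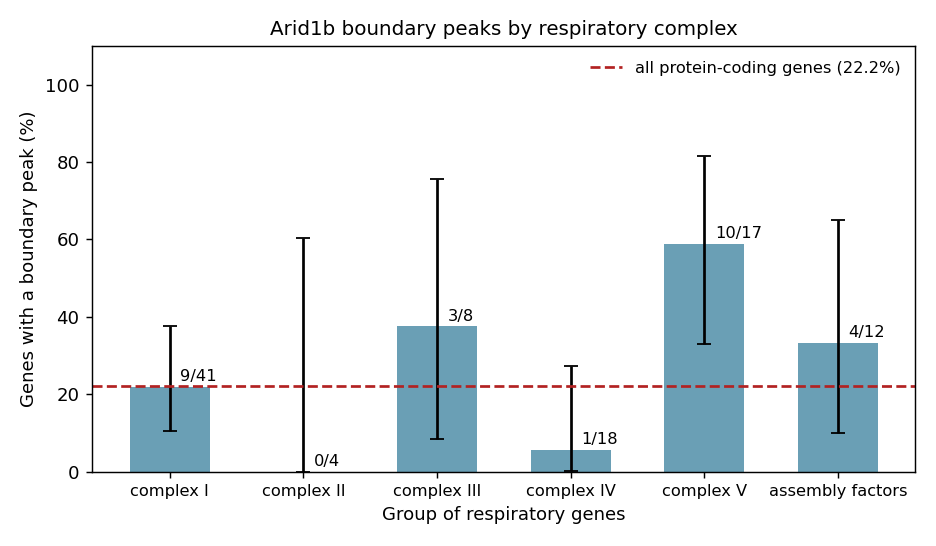
Share of genes with an Arid1b boundary peak (vertical axis, percent) in each respiratory complex and among assembly factors. Bars carry exact binomial 95% intervals and the count of genes, and the dashed line marks the 22.2% of all protein-coding genes; complex V (10 of 17) stands highest among the complexes, while complex IV has 1 of 18.

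The sequences at the starts of 9 genes are shown to place the peaks on the DNA, from RefSeq windows of 250 bases before to 50 bases after the start (GRCm38.p6, the assembly that mm10 names). The start is base 251, each sequence reads 5′ to 3′ on the strand of the gene, and capitals mark motif letters found on either strand. The motifs searched were the NRF1 palindrome (GCGCA and GCGC with any base between them), CCGGAAG (the ETS family, which includes GABPA), AAGATGGC (YY1), GGGCGG (the GC box) and CCAAT. The first 4 windows belong to the genes with the strongest boundary peaks.
Atp5b (chr10:128083057-128083356, plus strand): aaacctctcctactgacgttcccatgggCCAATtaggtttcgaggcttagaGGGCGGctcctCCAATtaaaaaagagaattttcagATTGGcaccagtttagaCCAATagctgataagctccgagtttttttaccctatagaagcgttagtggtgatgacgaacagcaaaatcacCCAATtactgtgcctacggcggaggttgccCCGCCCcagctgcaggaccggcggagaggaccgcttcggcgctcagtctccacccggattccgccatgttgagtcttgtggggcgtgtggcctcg
Ndufb1 (chr12:101975689-101975988, minus strand): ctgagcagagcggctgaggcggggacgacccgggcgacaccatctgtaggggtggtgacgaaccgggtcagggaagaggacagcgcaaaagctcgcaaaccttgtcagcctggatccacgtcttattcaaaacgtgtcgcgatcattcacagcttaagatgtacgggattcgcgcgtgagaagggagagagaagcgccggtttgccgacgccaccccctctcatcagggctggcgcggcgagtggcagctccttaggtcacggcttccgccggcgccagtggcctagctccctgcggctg
Ndufaf8 (chr11:120098684-120098983, plus strand): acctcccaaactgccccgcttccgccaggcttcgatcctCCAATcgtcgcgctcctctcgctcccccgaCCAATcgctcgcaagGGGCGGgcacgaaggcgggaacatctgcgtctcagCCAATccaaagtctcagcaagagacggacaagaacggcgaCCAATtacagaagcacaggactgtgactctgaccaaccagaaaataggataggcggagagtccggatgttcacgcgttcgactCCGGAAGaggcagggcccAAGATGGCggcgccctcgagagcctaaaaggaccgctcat
Uqcrh (chr4:116075021-116075320, minus strand): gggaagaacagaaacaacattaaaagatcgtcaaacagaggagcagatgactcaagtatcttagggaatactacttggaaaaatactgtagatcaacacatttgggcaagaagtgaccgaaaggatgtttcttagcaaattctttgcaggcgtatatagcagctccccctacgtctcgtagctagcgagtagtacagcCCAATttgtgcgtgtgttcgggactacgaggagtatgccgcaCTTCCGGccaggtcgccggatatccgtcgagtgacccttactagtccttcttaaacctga
The next 3 windows belong to the genes for the c subunit of the ATP synthase ring, of which Atp5g1 and Atp5g2 had a boundary peak and Atp5g3 had none.
Atp5g1 (chr11:96075582-96075881, minus strand): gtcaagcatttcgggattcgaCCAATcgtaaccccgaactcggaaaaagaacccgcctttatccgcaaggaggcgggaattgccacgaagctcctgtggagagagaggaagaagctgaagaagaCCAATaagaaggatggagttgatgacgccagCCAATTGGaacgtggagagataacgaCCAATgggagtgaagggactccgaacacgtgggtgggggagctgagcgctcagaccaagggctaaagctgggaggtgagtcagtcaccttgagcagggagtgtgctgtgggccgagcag
Atp5g2 (chr15:102670998-102671297, minus strand): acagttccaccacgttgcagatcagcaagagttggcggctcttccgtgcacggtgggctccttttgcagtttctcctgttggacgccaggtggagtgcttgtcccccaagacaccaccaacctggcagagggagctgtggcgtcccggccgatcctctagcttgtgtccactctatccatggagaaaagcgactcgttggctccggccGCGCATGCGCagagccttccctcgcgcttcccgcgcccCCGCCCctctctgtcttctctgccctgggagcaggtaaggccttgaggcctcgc
Atp5g3 (chr2:73911277-73911576, minus strand): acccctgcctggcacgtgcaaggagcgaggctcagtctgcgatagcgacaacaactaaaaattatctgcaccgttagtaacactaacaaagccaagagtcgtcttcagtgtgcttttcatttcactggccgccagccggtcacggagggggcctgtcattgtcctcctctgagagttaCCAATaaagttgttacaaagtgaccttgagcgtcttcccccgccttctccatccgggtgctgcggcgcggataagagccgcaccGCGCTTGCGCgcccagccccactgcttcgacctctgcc
The last pair belongs to complex IV, where Cox5a had a peak near its listed start and Cox5b had none.
Cox5a (chr9:57520982-57521281, plus strand): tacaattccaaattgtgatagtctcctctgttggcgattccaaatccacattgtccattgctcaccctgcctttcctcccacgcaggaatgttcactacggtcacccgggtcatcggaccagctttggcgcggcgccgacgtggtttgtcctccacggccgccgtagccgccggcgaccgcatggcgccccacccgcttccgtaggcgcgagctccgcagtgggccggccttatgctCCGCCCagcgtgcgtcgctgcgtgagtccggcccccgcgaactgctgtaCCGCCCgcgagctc
Cox5b (chr1:36691237-36691536, plus strand): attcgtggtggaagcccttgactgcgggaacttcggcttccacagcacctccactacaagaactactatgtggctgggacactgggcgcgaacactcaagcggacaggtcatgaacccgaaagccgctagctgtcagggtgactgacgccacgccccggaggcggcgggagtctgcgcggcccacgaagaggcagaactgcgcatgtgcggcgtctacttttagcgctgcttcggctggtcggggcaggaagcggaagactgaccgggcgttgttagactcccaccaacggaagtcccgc

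The ATP synthase genes with boundary peaks came from every structural part of the enzyme. In the peripheral stalk, however, the only peaks, at Atp5h and Atp5pb, were shared with a coding neighbour, as described below. In the F1 head and central stalk, 4 of 5 genes had one. Atp5b, the gene for the catalytic beta subunit, had a peak at chr10:128082834-128083707 with a summit pileup of 108 fragments in the ChIP against an expected level of 8.68 from the input. Its fold enrichment was 11.3 (95% Poisson interval of the pileup 9.25 to 13.6), which ranked 5 among 5275 peaks at the boundaries of protein-coding genes. The summit lay 142 bp upstream of the start, at base 109 of the sequence above, beside a CCAAT at base 104. The Atp5b window held 5 matches of CCAAT on either strand, at bases 29, 63, 87, 104 and 176, and a GC box at bases 52 and 206.

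Atp5c1, for the gamma subunit that turns inside the head, had a fold of 4.96 (3.67 to 6.56) from a pileup of 47. Atp5a1, for the alpha subunit that alternates with beta, had 3.56 (2.49 to 4.93), and Atp5e, for the epsilon subunit of the stalk, had 3.51 (2.61 to 4.63). The intervals of Atp5c1, Atp5a1 and Atp5e overlapped each other, and that of Atp5b lay above all of them. Atp5d, for the delta subunit, was the F1 gene without a boundary peak. It had 4 peaks beyond its annotated ends, the nearest 2781 bp away with a fold of 3.33 and the strongest with 4.62.

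Of the 3 genes for the ring-forming c subunit, whose precursors carry different import sequences but the same mature protein, Atp5g2 had a fold of 3.72 (2.62 to 5.13) and Atp5g1 had 3.30 (2.33 to 4.55). These 2 values could not be told apart at this depth, and Atp5g3 had no peak inside it or up to 10 kb outside. In the peripheral stalk, which holds the head still, Atp5h reached 4.13 (2.97 to 5.61) and Atp5pb 3.51 (2.45 to 4.89), while Atp5j and Atp5o had none. Among 5 small membrane subunits, Atp5l had 5.27 (3.94 to 6.91) and Atp5mpl 3.10 (2.11 to 4.40), and Atp5j2, Atp5k and Atp5md had none. Atp5mpl had the lowest pileup of the 27 genes, at 29 fragments.

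Complex I, the NADH dehydrogenase, had its peaks on both core and accessory genes. Of its 7 nuclear core genes, which carry the flavin and the iron-sulfur clusters or bind the quinone, 3 had a boundary peak: Ndufv2 at 3.94 (2.90 to 5.25), Ndufs8 at 3.71 (2.63 to 5.10) and Ndufs1 at 3.58 (2.62 to 4.80). The 3 intervals overlapped almost wholly. Ndufs3, Ndufs7 and Ndufv1 were among those without one. Of 31 accessory genes, 6 had one.

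Ndufb1, for a small subunit of the membrane arm, stood apart from the other complex I genes. Its peak at chr12:101975447-101976276 had a pileup of 103 against an expected 10.1, a fold of 9.40 (7.69 to 11.4), and ranked 23 among the 5275 boundary peaks. The other accessory genes lay between 3.30 and 4.03: Ndufs4, a subunit needed for a stable NADH-binding module, at 4.03 (2.88 to 5.49), Ndufb10 at 3.90 (2.79 to 5.32), Ndufa6 at 3.85 (2.79 to 5.19), Ndufa10 at 3.82 (2.71 to 5.25) and Ndufa13 at 3.30 (2.28 to 4.65). Their intervals all lay below that of Ndufb1. The paralogues Ndufa4l2, Ndufb4b and Ndufb4c, and Ndufa4, whose product is now assigned to complex IV, had no boundary peak.

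In complex III, the cytochrome c reductase, Uqcrh, for the acidic hinge protein that contacts cytochrome c1, had 2 boundary peaks. The stronger, at chr4:116075120-116075796, had a pileup of 64 and a fold of 6.71 (5.19 to 8.54), and the weaker had 3.30 (2.37 to 4.48). Uqcrq, for a small subunit, had 3.17 (2.25 to 4.36), and Uqcrfs1, for the Rieske iron-sulfur protein, had 2.93 (2.02 to 4.13), the lowest fold of the 27 genes. No boundary peak was listed at the core protein genes Uqcrc1 and Uqcrc2 or at Uqcrb, Uqcr10 and Uqcr11. Uqcr11 had a pair of peaks beyond its ends, with folds of 4.01 and 4.37.

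Complex IV, the cytochrome c oxidase, had almost no boundary peaks. Cox4i1, for the widely expressed form of the largest nuclear subunit, had the only boundary peak, with a fold of 3.60 (2.61 to 4.85) and a pileup of 41. Its paralogue Cox4i2 had none, and neither did any gene of the other families with more than one form, namely Cox6a1 and Cox6a2, Cox6b1 and Cox6b2, Cox7a1, Cox7a2 and Cox7a2l, Cox7b and Cox7b2, and Cox8a, Cox8b and Cox8c. Cox5a, which binds at the matrix side, was missed by the boundary rule because its listed start lies 3904 bp inside the annotated gene. A peak of 3.94 (2.83 to 5.35) at chr9:57521331-57521776 had its summit 255 bp downstream of that start. Cox6a1 and Cox7a1 had peaks of at most 3.38 that lay more than 4 kb away.

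Complex II, the succinate dehydrogenase, had no boundary peak at Sdha and Sdhb, for the catalytic subunits, or at Sdhc and Sdhd, for the membrane anchors. The nearest was a peak of 3.30 lying 4815 bp from Sdhd. Among the assembly factors of complex II, Sdhaf1 and Sdhaf2 did have boundary peaks, though that of Sdhaf2 lay outside the gene and inside its neighbour Cpsf7. Sdhaf2, which attaches the flavin to Sdha, had 4.03 (2.97 to 5.34), and Sdhaf1, which helps insert the iron-sulfur clusters of Sdhb, had 3.85 (2.79 to 5.19). Among the 8 assembly factors of complex I, Ndufaf8 had 8.26 (6.56 to 10.3), from a pileup of 79 at an expected 8.68, and Ndufaf4 had 4.23 (3.05 to 5.73). The interval of Ndufaf8 lay above those of the other 3 assembly factors with a peak.

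Taking the strongest boundary peak of each of the 27 genes, the median fold was 3.85 (quartiles 3.53 and 4.18). The strongest boundary peaks of all protein-coding genes, taken in the same way, had a median of 3.92. Over the 5275 boundary peaks of protein-coding genes, each counted once, the median was 3.82 (3.34 and 4.37). For 22 of the 27, the interval included that median of 3.82, so they could not be told apart from an average boundary peak. The intervals of Atp5b, Ndufb1, Ndufaf8, Uqcrh and Atp5l lay above it and none lay below it. A fold of at least 5 was reached at these 5 genes of 100, against 3.29% of all protein-coding genes. Pileups ran from 29 to 108 with a median of 40. The expected level was at the lowest value of the list, 8.68, taken here as the genome background, for 13 of the peaks. For 14 it was above that, at up to 13.0. Local input below 8.68 could not be seen from these values, so the folds of the 13 are over this common level. At background the list held no peak with a pileup under 24 (fold 2.58), so weaker Arid1b signal at the 73 other genes was not detectable at this depth. The intervals cover counting error only.

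**Figure D2:**
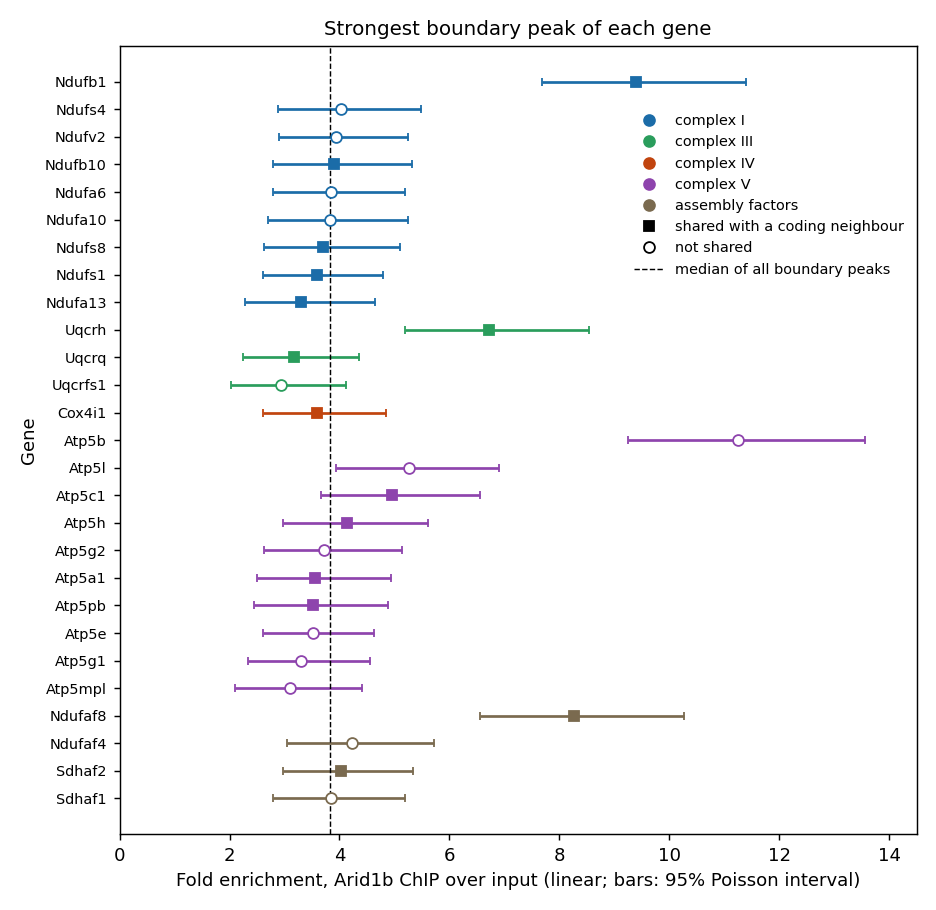
Fold enrichment of Arid1b ChIP over input (horizontal axis, linear) at the strongest boundary peak of each of the 27 genes, with 95% Poisson intervals of the summit pileup. Filled squares are peaks shared with a protein-coding neighbour, open circles are not shared, and the dashed line is the median of all boundary peaks (3.82); Atp5b, Ndufb1, Ndufaf8, Uqcrh and Atp5l lie above it with their whole intervals.

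Many of the peaks could not be given to the respiratory gene alone. In 14 of the 27 genes (51.9%, exact binomial 95% interval 31.9 to 71.3) the strongest boundary peak also lay within 1 kb of a boundary of another protein-coding gene. Among all 4857 protein-coding genes with a boundary peak, 29.7% shared it in this way. A coding start on the opposite strand within 1 kb upstream was also more frequent in respiratory start windows (26 of 87) than in all protein-coding windows (1694 of 21263). Whether this arrangement accounts for the difference in sharing was not tested. The median fold was 3.81 for the shared peaks and 3.85 for the others. Of the 4 strongest genes, 3 shared their peak and Atp5b did not.

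For 8 of the 14 genes the neighbour began at the peak, on the opposite strand where both strands were listed. These were Ndufaf8 with Tepsin, an adaptor accessory protein gene, Sdhaf2 with Cpsf7 and Ndufb1 with Cpsf2, both genes of mRNA 3′ end processing, Ndufs1 with the translation elongation factor gene Eef1b2, Uqcrh with Lrrc41, Atp5c1 with Kin, Atp5h with Kctd2, and Atp5pb with Wdr77. In 7 of these 8 pairs the summit was nearer to the annotated boundary of the neighbour than to that of the respiratory gene, by a small margin in Ndufs1 and Sdhaf2. The whole peaks of Ndufs1, Sdhaf2 and Atp5pb nevertheless lay outside the respiratory gene and inside the neighbour. That of Atp5c1 lay inside Atp5c1 and outside Kin. The Uqcrh summit lay 11 bp from the boundary of Lrrc41 and 210 bp from that of Uqcrh. For Atp5h it lay 6 bp from Kctd2 and 181 bp from Atp5h, for Atp5pb 152 bp from Wdr77 and 387 bp from Atp5pb, and for Ndufb1 84 bp from Cpsf2 and 105 bp from Ndufb1. By annotated boundaries Atp5c1 was the exception, with 274 bp to its own boundary and 315 bp to Kin. By listed starts, which are 236 bp apart for Ndufb1 and Cpsf2, the Ndufb1 summit was also nearer to the respiratory gene.

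In 3 further genes the summit was nearer to the end than to the start of the neighbour. The Ndufb10 peak lay inside that gene, near where it converges with Rps2, with its summit 895 bp from the end of this ribosomal protein gene and 1601 bp downstream of the start of Ndufb10. The Ndufa13 summit was 399 bp from the end of Tssk6, a kinase gene of the testis whose start also lay within 1 kb of the peak, and at -1099 bp, that is upstream, from the start of Ndufa13. That whole peak lay inside Tssk6 and outside Ndufa13. Ndufs8 shared its peak with the end of Aldh3b1, 802 bp away, while its own boundary was 85 bp away. For Cox4i1 (with Emc8 and the readthrough gene Gm27021), Uqcrq (with Gdf9) and Atp5a1 (with Haus1) strand was not used here. The summit was nearer to the boundary of the neighbour, at 239 against 377 bp, 147 against 204 bp and 630 against 747 bp. At Uqcrq and Atp5a1, however, the gene overlaps its neighbour, and the summit lay inside the respiratory gene and outside the neighbour. The Cox4i1 summit lay outside Cox4i1 and inside Emc8 and Gm27021. A noncoding gene lay within 1 kb of the peak at Atp5b (the small nucleolar RNA gene Snord59a), Atp5g2 (Mir688), Atp5l (Gm30934) and Ndufaf4 (Gm46848).

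No gene was counted or left out by a peak at the edge of the 1 kb limit. Taking the nearest peak of each gene, the farthest counted was that of Ndufb10, 685 bp from its boundary, and among genes without a boundary peak the nearest was a peak of 3.12 lying 1424 bp from Ndufb6. Closer to the limit lay only further peaks of genes already counted, such as the weaker Uqcrh peak at 931 bp, which was counted, and another Uqcrh peak at 1234 bp, which was not. A further 12 genes had peaks only deeper inside or at up to 10 kb outside: Atp5d, Cox5a, Cox6a1, Cox7a1, Ndufaf2, Ndufaf3, Ndufb6, Ndufc1, Ndufs7, Ndufv3, Sdhd and Uqcr11. The strongest of these were at Ndufs7 (5.47, 4.11 to 7.14) and Ndufaf2 (5.27, 3.94 to 6.91), both more than 8 kb from the gene. Counting peaks inside the gene and up to 10 kb outside, 39 genes had one, against 31.7% of all protein-coding genes, and 61 had none. The 3 genes on chromosome X, Ndufa1, Ndufb11 and Cox7b, had no boundary peak, where 2.48% of the 966 protein-coding genes of that chromosome had one.

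The RefSeq windows gave a start and strand for 82 of the 100 genes, in 87 windows, and 22 of the 82 genes (26.8%) had a peak reaching within 1 kb of a listed start, against 23.9% of protein-coding genes with a window. Counted in this way, Cox5a was gained and Ndufb10 was lost. Atp5a1, Atp5mpl, Cox4i1, Ndufs1 and Uqcrq had a boundary peak but no window, and so dropped out. The complex IV gene with a start peak was thus Cox5a, where the boundary count had Cox4i1. By complex the start peaks were at 8 of 15 ATP synthase genes, 7 of 35 complex I genes, 2 of 5 complex III genes, 1 of 13 complex IV genes, 0 of 3 complex II genes and 4 of 11 assembly factors, which keeps complex V highest among the complexes that had any window. In this count the intervals of complex V (53.3%, 26.6 to 78.7) and complex IV (7.69%, 0.195 to 36.0) overlapped, unlike those of the boundary count.

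Summit positions were described apart for windows with and without another coding start nearby, and the difference was not tested. A divergent protein-coding start within 1 kb upstream was listed for 26 of the 87 windows, against 1694 of 21263 over all protein-coding genes. Of the 26, 9 had a peak (34.6%, 17.2 to 55.7), against 46.0% of such windows over all protein-coding genes. Ndufa5, Ndufa7 and Atp5c1 each gave more than 1 of the 26 windows, so the windows under this interval were not all independent. In 7 of the 9 the summit lay upstream of the respiratory start, with a median of -181 bp over the 9. Both exceptions were windows of Atp5c1, which hold the same peak. Of the 61 windows without a divergent start, 14 had a peak (23.0%, 13.2 to 35.5), against 21.3% over all genes. There the summit lay 50 to 400 bp downstream of the start in 12 of 14, a range chosen after the values were seen, with a median of 211 bp. Over all protein-coding windows with a peak, summits lay upstream in 57.6% of those with a divergent start and in 24.9% of the others, and 53.7% of the others lay in the range of 50 to 400 bp. The pattern of the respiratory genes was therefore also present in genes at large, and whether it was stronger in them was not tested. Atp5b at -142 bp and Atp5l at -439 bp were the windows without a divergent coding start whose summit lay upstream. The boundary of the lncRNA gene Gm30934 near the Atp5l peak was its start.

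**Figure D3:**
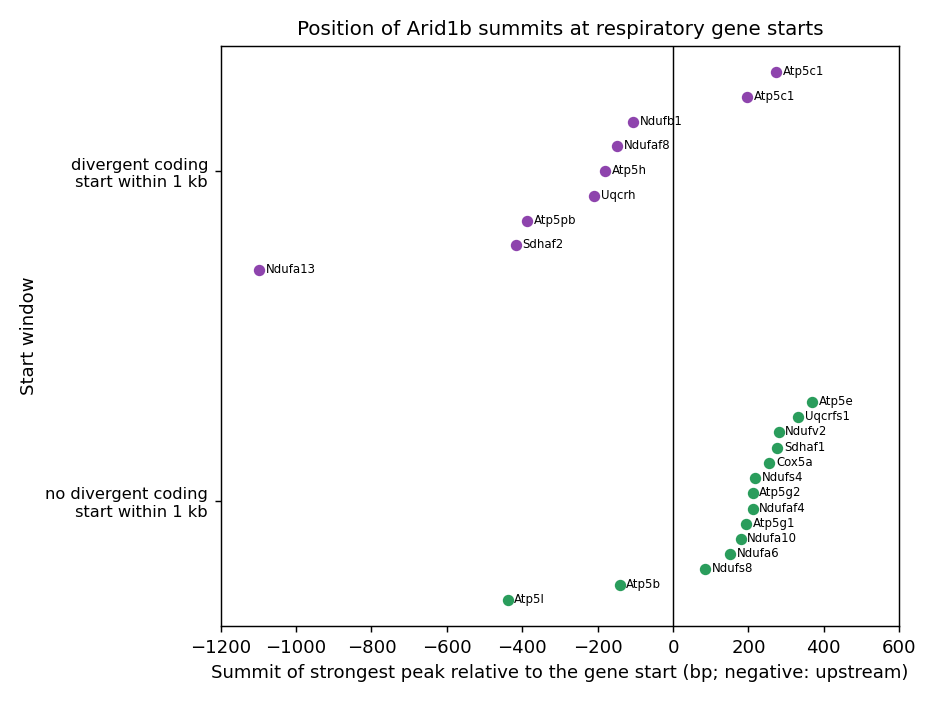
Position of the summit of the strongest peak relative to the listed start of each respiratory gene (horizontal axis, bp, negative upstream), one point per start window with a peak. In the upper row, with a divergent protein-coding start within 1 kb, 7 of 9 summits lie upstream, and in the lower row, without one, 12 of 14 lie 85 to 370 bp downstream.

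The start windows of respiratory genes differed from those of other genes in their letters. The NRF1 motif was in 22 of 87 windows (25.3%), against 6.38% of 21263 protein-coding windows, the YY1 motif in 12.6%, against 3.05%, and the ETS motif in 25.3%, against 11.6%. The GC box, at 46.0% against 46.2%, and CCAAT, at 41.4% against 38.2%, were close to those of all genes. These shares describe the letters in the windows and carry no test.

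Respiratory windows with an Arid1b peak were set beside those without one. The NRF1 motif was in 5 of 23 respiratory windows with a peak (21.7%) and in 17 of 64 without one (26.6%), and the YY1 motif in 13.0% and 12.5%. The ETS motif was in 34.8% with a peak and 21.9% without, the GC box in 56.5% and 42.2%, and CCAAT in 56.5% and 35.9%. Over all protein-coding genes the NRF1 motif was in 10.3% of windows with a peak and 5.17% of those without, the ETS motif in 19.6% and 9.12%, the GC box in 73.1% and 38.0%, and CCAAT in 38.6% and 38.1%. Median GC content was 62.3% in respiratory windows with a peak and 57.2% in those without, against 64.3% and 53.7% over all protein-coding windows. The observed over expected CpG ratio was 0.889 and 0.801 in respiratory windows, against 0.839 and 0.400 over all windows. The small number of windows limits what can be read from these shares.

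**Figure D4:**
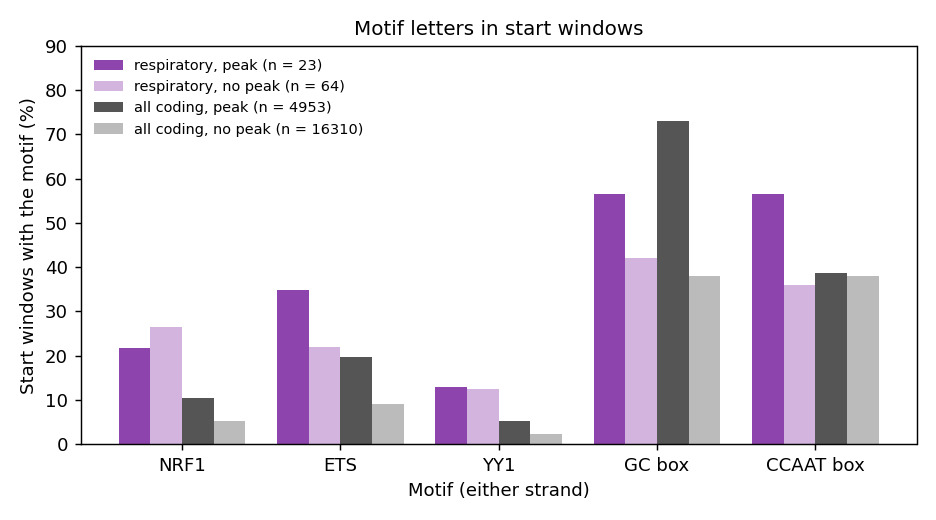
Share of RefSeq start windows (vertical axis, percent) that hold each motif on either strand, for respiratory genes with a peak within 1 kb of the start (23 windows) and without one (64), and for all protein-coding genes with (4953) and without (16310) such a peak. The NRF1 bars of respiratory genes are similar with and without a peak (21.7% and 26.6%) and higher than those of all genes.

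Among the sequences above, the 3 c subunit genes had different letters at their starts. Atp5g1 held 5 CCAAT matches on either strand and no NRF1 match, Atp5g2 held an NRF1 match at base 209 and a GC box at base 247, and Atp5g3 held a CCAAT at base 179 and an NRF1 match at base 263. Ndufaf8 held 4 CCAAT matches, a GC box at base 85, an ETS match at base 243 and a YY1 match at base 261. The Uqcrh window held a CCAAT at base 199 and an ETS match at base 241, and the Cox5a window held GC boxes at bases 238 and 287. None of the 5 motifs was found in the windows of Ndufb1 and Cox5b, which says only that these letters were not in those windows.

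Other genes of the pathway, outside the symbol rule, carried boundary peaks too, and the counts below stand against the 22.2% of all protein-coding genes. Of 39 further assembly and insertion factors, 16 had one (41.0%, 25.6 to 57.9), the strongest at Pet117 (5.16), Cox11 (4.54), Cox20 (4.44) and Ecsit (4.31), of which Cox20 alone did not share its peak with a coding neighbour. Of 14 genes of the tricarboxylic acid cycle, which feeds the chain with electrons, 6 had one, among them Dlst (5.89), Ogdh (3.94), Cs (3.92), Fh1 (3.82) and Dld (3.51). Cyc1, for cytochrome c1 of complex III, and Cycs, for somatic cytochrome c, had none, and Atpif1, for the inhibitor of ATP synthase, had 4.77 (3.57 to 6.24) in a peak shared with Dnajc8. Of 23 regulators of nuclear respiratory genes and of mitochondrial DNA, 9 had one (39.1%, 19.7 to 61.5), with Sp1 (8.26), Mterf3 (6.97), Polg2 (5.99) and Yy1 (4.73) highest and Nrf1 at 3.85 (2.79 to 5.19). The peaks of Mterf3 (with Ptdss1), Polg2 (with Ddx5) and Dlst (with Prox2) were also shared with a coding neighbour. Gabpa and Gabpb1 were among the 14 without one.

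Gene groups of similar housekeeping type had larger shares than the respiratory genes as a whole. Boundary peaks were at 27 of 78 mitochondrial ribosomal protein genes (34.6%, 24.2 to 46.2), 18 of 49 proteasome genes (36.7%, 23.4 to 51.7) and 53 of 91 cytosolic ribosomal protein genes (58.2%, 47.4 to 68.5). The interval of the cytosolic ribosomal proteins lay above that of the 100 respiratory genes (18.6 to 36.8), and those of the other groups overlapped it. The share of complex V (58.8%) was close to that of the cytosolic ribosomal proteins, with a much wider interval.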

How the data were processed

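The data were the peaks of 1 Arid1b ChIP-seq library over 1 input library. The submitters' processing notes name the build mm10 and, with no roles, MACS2 2.1.1, Bowtie2 2.2.5, FastQC 0.11.8 and Picard. For each of 8318 peaks the authors' deposited list gives a score, a fold enrichment over input (a linear ratio), a -log10 p-value and a -log10 q-value, all used only to describe or filter peaks; the score was not used. Total read numbers were not given in the sources used here.

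Summit pileup and expected input level were solved for from the deposited fold and p-value (MACS2 formulas, tolerance 0.001 in -log10 p, 100% of peaks). Exact Poisson 95% intervals of the pileup gave the intervals of folds. Shares have exact binomial (Clopper-Pearson) intervals. Genes came from RefSeq GRCm38.p6 and starts and sequences from its promoter table; coordinates are 1-based. The scripts were tested on simulated data. No test between groups was possible with 1 library each, and none was run over genes.

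The text names every member with a boundary peak, those with a peak within 10 kb and the isoform families, and in the other lists the 4 strongest. Some items are not reported here. Further absent or listed genes were named after their values were seen. The members and lists were chosen with earlier results of these data known. Alternatives covered windows, peak filters, the summit and subunits only. Python 3.11.15, scipy 1.17.1 and pandas 2.3.3 were used.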

Additional observations from a re-analysis of the deposited data

How the results depend on the processing

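The count of 27 genes ran from 22 by start site to 39 for peaks in the gene or within 10 kb, apart from the filters that remove most peaks. With a fold of at least 5, 5 genes had a boundary peak (complex I 1, complex III 1, complex IV 0, complex V 2, assembly factors 1), of which 3 shared it. Over peaks with an expected level at background, 13 had one (complex I 3, complex III 1, complex IV 0, complex V 7, assembly factors 2), 6 of them shared, against 11.4% of all protein-coding genes. Both filters keep fewer peaks by construction. A window of 5 kb gave 34 genes, against 27.0% of all protein-coding genes, with complex II at 1 and complex IV at 3. At 5 kb, 24 genes shared their peak, but a wider window takes in more neighbours of any gene. The shared counts under these alternatives were not set against all protein-coding genes. Peaks in the gene or within 10 kb gave complex II 1 and complex IV 4. Leaving out assembly factors set their count to 0 by construction. Windows of 500 bp, a -log10 q of at least 5 and summits in place of whole peaks moved no count by over 1.5 times, and the median fold ran from 3.84 to 4.13. Complex V had more genes with a peak than complex IV under each of these alternatives. No paired analysis was possible because each group had 1 library and no test was run. Modest pileups limit the ranking of single genes, and a gene without a listed peak may carry weaker signal.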
